A study of Oryza sativa with 20 samples.

Results

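The type-A response regulators of cytokinin signalling were followed here through a short heat shock of rice shoots and the recovery from it. The family members are the 6 gene IDs listed as RR1 (OS04G0442300), RR2 (OS02G0557800), RR4 (OS01G0952500), RR6 (OS04G0673300), RR9 (OS11G0143300) and RR10 (OS12G0139400), of 37248 gene IDs in the deposited table. Where an ID stood on several rows, the row of highest mean level was used. The shoots were from wild-type Oryza sativa plants, 2 weeks old and greenhouse-grown, whose pots were turned upside down. In the heat groups the shoots hung in water at 42 °C for 10 min, and in the control groups in water at 22 °C for the same time. Both were then kept at 30 °C, and shoots were collected 10 min, 20 min, 1 h, 2 h and 10 h after the start of the bath. The 10 min shoots came straight from the bath. Each of the 10 groups held 2 libraries, and a library came from 3 shoots. Inversion and immersion are therefore common to all groups, and the later 30 °C to the 8 groups sampled from 20 min on. Effects of the 42 °C bath and of the 22 °C bath with its later warming cannot be told apart.

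Cytokinin is sensed by membrane histidine kinases, and the signal passes through a relay of phosphate groups to response regulators in the nucleus. Type-B response regulators bind DNA and switch on cytokinin-responsive genes, among them the type-A genes. Type-A proteins carry the receiver domain that takes the phosphate but no DNA-binding output domain. They are known as fast primary responders to cytokinin that damp the same pathway, so their transcripts are widely read as a gauge of cytokinin signalling.

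The measured quantity was FPKM, a fragment count divided by transcript length and by the size of the library. The authors gave 1 FPKM value per group, made from both libraries, so no SD stands beside a level and no library can be left out. A gene counts as called where the authors' deposited table gives a q below 0.05. These q values have 2 decimals, and a q of 0 is one that rounds to 0. The size of a difference is given as a log2 ratio of FPKM + 1, which understates changes of low values. A record is a distinct set of deposited values, and the 24219 records that averaged 1 FPKM or more over the groups served as the background, all 6 family members among them. Summed FPKM ran from 812316 to 1233043 in the heat groups and from 698681 to 861006 in the control groups. The highest sum was that of heat at 1 h, before 924737 for heat at 20 min, and the lowest that of the control at 2 h. Factors for rescaling the groups by median ratio ran from 0.951 to 1.05. FPKM holds no counts, so the depth behind a value is unknown. The tissue label was not checked against marker genes, because the table does not pair its IDs with names. A level in whole shoots cannot separate fewer cells of a type from less RNA per cell.

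The members did not share a single response. RR6 was the only member called higher in heated than in control shoots, by 3.94-fold at 20 min, 1.96-fold at 1 h and about 4-fold at 2 h. RR2, RR4 and RR10 were lower in heated than in control shoots at 1 h, each at between 39.2% and 52.8% of the control level. In controls all 3 were higher at 1 h than at 20 min, while in heated shoots none of them was lower by more than 0.13 on the log2 scale. The control values at 1 h and 2 h stood 1.98-fold to 12.8-fold apart for all 6 genes, the earlier one being higher. At 10 h no member was called in either direction, where 4.29% of all compared records were.

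The row used for RR1 needs a remark before the results. Its values are identical, in every column, to those of a row under a second ID, OS04G0442200, which stands directly before RR1 in the table. The authors' processing thus gave both IDs the same value, and the part that belongs to RR1 cannot be told apart. RR1 has 2 further rows that no other ID shares, with means of 5.29 and 1.48 FPKM against 35.5 FPKM for the shared row. RR2 also has 3 rows, whose highest is its own, and RR4, RR6, RR9 and RR10 have 1 row each. RR9 and RR10 are near-identical copies from the duplicated ends of chromosomes 11 and 12, so reads could have been split between them and each level is uncertain to that extent. A table of RefSeq gene names (assembly ASM3414082v1) lists all 6 names on the chromosome whose number the ID carries, namely 4, 2, 1, 4, 11 and 12. Coordinates are not given, because that assembly is not the IRGSP-1.0 build of the data.

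**Figure D1:**
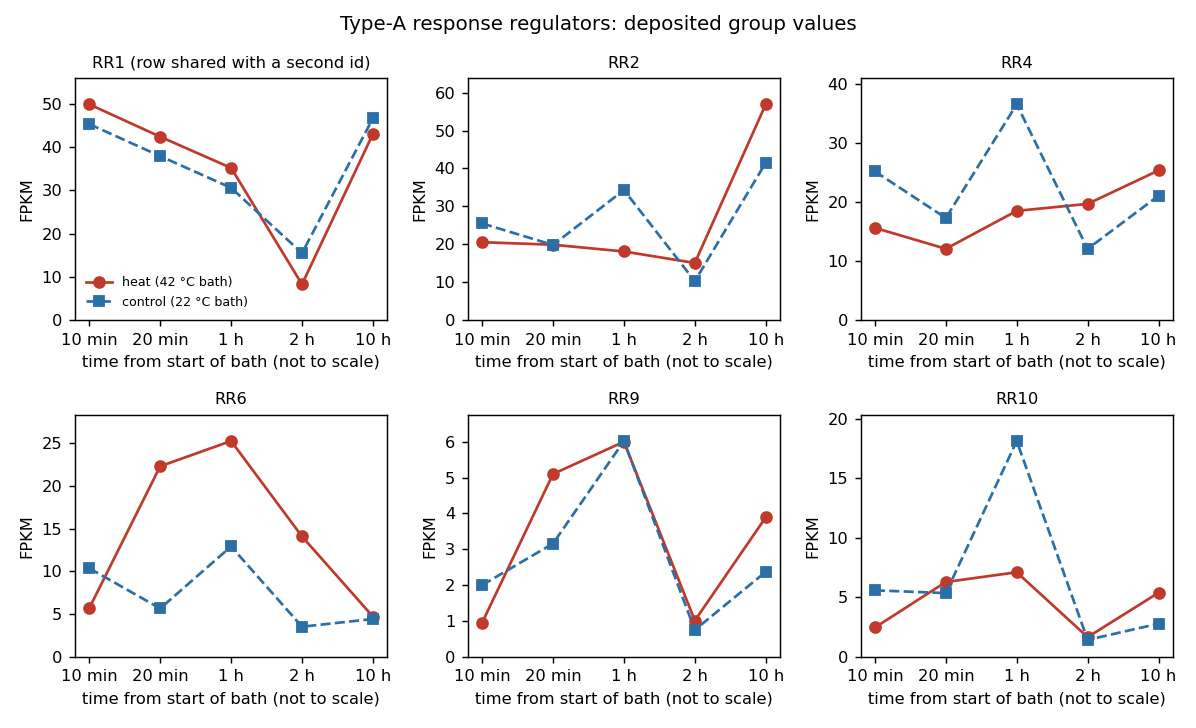
Deposited FPKM of the 6 genes (1 panel each, y axis from 0) against sampling time, in heated shoots (red circles) and control shoots (blue squares), with 1 value per group and no error. RR6 lies above its controls at 20 min, 1 h and 2 h, while RR2, RR4 and RR10 lie below their control peak at 1 h.

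RR6 gave the strongest response to heat in the family. Rice plants that overproduce RR6 are known to be dwarfed and less sensitive to cytokinin. In heated shoots RR6 stood at 5.69, 22.28, 25.23, 14.07 and 4.7 FPKM at 10 min, 20 min, 1 h, 2 h and 10 h. In the controls it stood at 10.35, 5.65, 12.9, 3.52 and 4.42 FPKM at the same times. The heated value was the lower one at the end of the bath, the higher one at the next 3 times, and close to the control at 10 h.

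At 20 min RR6 was 3.94-fold higher after heat (log2 ratio 1.81, q = 0 in the authors' deposited table). At 1 h it was 1.96-fold higher (log2 ratio 0.92, q = 0.01 in the authors' deposited table). At 2 h the difference was close in size to that at 20 min (log2 ratio 1.74, q = 0 in the authors' deposited table). A ratio at least this high was found in 2.27% of compared records at 20 min, in 15.4% at 1 h and in 5.11% at 2 h. The smaller ratio at 1 h goes with a higher control value at that time, since the heated level at 1 h was the highest of the series. At 10 min the log2 ratio was -0.76, and RR6 was not called (q = 0.06 in the authors' deposited table).

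Up to 2 h RR2 and RR4 varied less in heated shoots than in controls. RR2 is known in rice crown roots as a gene repressed by the homeobox factor WOX11, and RR4 is given here only by its family role. In heated shoots RR2 stood at 20.54, 19.88, 18.1, 15.07 and 56.91 FPKM from 10 min to 10 h. In the controls it stood at 25.49, 19.82, 34.3, 10.27 and 41.49 FPKM. Between 10 min and 2 h the highest RR2 value was 1.36 times the lowest in heated shoots and 3.34 times the lowest in controls.

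RR4 stood at 15.61, 12.07, 18.49, 19.67 and 25.34 FPKM in heated shoots over the same times. In the controls RR4 stood at 25.17, 17.28, 36.53, 12.05 and 21.06 FPKM. Its span between 10 min and 2 h was 1.63-fold in heated shoots and 3.03-fold in controls. The span over these times was also smaller in heated shoots for RR10 (4.30-fold against 12.8-fold in controls) and RR9 (6.32-fold against 8.03-fold). It was larger in heated shoots for RR6 (4.43-fold against 3.66-fold) and the shared row of RR1 (6.03-fold against 2.93-fold). None of these differences in span could be tested, as there is 1 value per group.

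At 1 h both genes were lower in heated than in control shoots. RR2 was at 18.1 FPKM in heated and at 34.3 FPKM in control shoots (log2 ratio -0.89, q = 0 in the authors' deposited table). RR4 was at 18.49 FPKM in heated and at 36.53 FPKM in control shoots (log2 ratio -0.95, q = 0 in the authors' deposited table). These differences were a little under 2-fold, at 1.90-fold and 1.98-fold. Between 20 min and 1 h the log2 difference in heated shoots was -0.13 for RR2 and 0.58 for RR4, and in controls it was 0.76 and 1.04. At 2 h both log2 ratios were positive, 0.51 for RR2 (q = 0.19 in the authors' deposited table) and 0.66 for RR4 (q = 0.05 in the authors' deposited table). At 2 decimals that of RR4 may lie on either side of the threshold. The same holds at 10 min, where RR4 had a log2 ratio of -0.66 with the same rounded q of 0.05 in the authors' deposited table.

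RR9 and RR10 are the copies whose joint loss is known to make rice seedlings more tolerant of salt. RR10 stood at 2.46, 6.28, 7.1, 1.65 and 5.38 FPKM in heated shoots from 10 min to 10 h. In the controls RR10 stood at 5.58, 5.35, 18.12, 1.42 and 2.78 FPKM. The control value at 1 h was the highest of the 10 groups and the control value at 2 h the lowest, 12.8-fold apart. RR10 was lower in heated than in control shoots at 10 min (log2 ratio -0.93, q = 0.03 in the authors' deposited table), the 1 gene of the family called at the end of the bath. It was again lower than in controls at 1 h, by 2.55-fold (log2 ratio -1.24, q = 0 in the authors' deposited table), and was not called at the other times. In heated shoots themselves RR10 was not lower at 1 h than at 20 min, at 7.1 against 6.28 FPKM.

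RR9 stood at 0.95, 5.1, 6, 1.01 and 3.89 FPKM in heated shoots. In the controls RR9 stood at 2, 3.16, 6.02, 0.75 and 2.37 FPKM. RR9 was called at no time, and its lowest q was 0.18, at 10 min, in the authors' deposited table. At 1 h, where RR10 differed most between heat and control, RR9 was equal in both (log2 ratio 0.00, q = 1 in the authors' deposited table). The level of RR10 divided by that of RR9 was 1.18 in heated shoots and 3.01 in controls at 1 h. Over the other 8 groups this quotient ran from 1.23 to 2.59 in heated shoots and from 1.17 to 2.79 in controls. The sources used here do not say how reads were divided between the copies, and the part of that division in this difference was not tested.

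RR1 is known in rice as a gene induced by the crown root factor CRL5. The row it shares with OS04G0442200 stood at 49.88, 42.39, 35.18, 8.27 and 43.03 FPKM in heated shoots. In the controls this row stood at 45.3, 37.9, 30.58, 15.48 and 46.65 FPKM. Both courses declined to 2 h and were high again at 10 h, with no peak at 1 h. At 2 h the shared row was lower after heat (log2 ratio -0.83, q = 0.04 in the authors' deposited table), and at the other times it was not called.

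The higher of the 2 rows that belong to RR1 alone had another course. It stood at 3.55, 2.98, 3.24, 3.46 and 7.73 FPKM in heated shoots and at 5.78, 4.43, 10.9, 3.66 and 7.12 FPKM in controls. As in RR2 and RR4, the control value was high at 1 h, and up to 2 h the heated values varied less, from 2.98 to 3.55 FPKM. The log2 ratio of this row was -1.49 at 1 h (q = 0.18 in the authors' deposited table) and -0.06 at 2 h (q = 0.96 in the authors' deposited table), so it was called at neither time. The direction of RR1 at 10 min, 20 min, 1 h and 10 h is therefore opposite in the shared row and in its own row, and none of these values is called. This row was singled out after its values were seen.

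**Figure D2:**
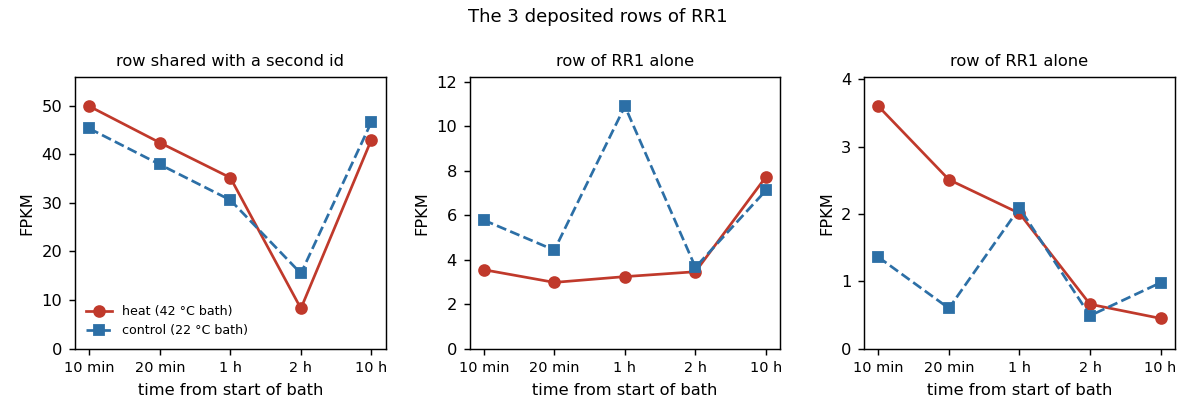
Deposited FPKM of the 3 rows of RR1 (y axes from 0, different scales) against sampling time, in heated shoots (red circles) and control shoots (blue squares). The row shared with a second ID has no peak at 1 h, whereas the middle row, of RR1 alone, reaches 10.9 FPKM in the 1 h controls and 3.24 FPKM in heated shoots.

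The first question of the design was how many members differed between heat and control at each time. At 10 min 1 of 6 was called, lower after heat, in the authors' deposited table, against 3.65% of compared records called in either direction, 1.49% higher and 2.16% lower. The log2 ratio was negative in 5 of 6 members, with a median of -0.64, against -0.02 over all compared records. At 20 min 1 of 6 was called, RR6, higher, in the authors' deposited table, where 9.04% of records were called, 3.22% higher and 5.82% lower. The median log2 ratio of the family was 0.18 there, against -0.05 over all compared records.

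At 1 h 4 of 6 were called in the authors' deposited table, RR6 higher and RR2, RR4 and RR10 lower, against 19.0% of compared records called, 10.9% higher and 8.12% lower. Where a difference of at least 2-fold was also asked for, 1 of 6 was left at 1 h, RR10, against 16.1% of compared records in the authors' deposited table. The family's median log2 ratio was -0.45, and -0.89 without RR1. Over all compared records it was -0.06. At 2 h 2 of 6 were called in the authors' deposited table, RR6 higher and the shared row of RR1 lower, against 17.1% of compared records, 10.8% higher and 6.35% lower. Without RR1 the count at 2 h was 1 of 5. At 10 h 0 of 6 were called, where the authors' deposited table called 4.29% of records, 2.65% higher and 1.64% lower. The lowest q of the family at 10 h was 0.13, for RR10 (log2 ratio 0.76), in the authors' deposited table. Medians at 2 h and 10 h were 0.36 and 0.35 over the family, against 0.00 and 0.02 over all compared records.

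**Figure D3:**
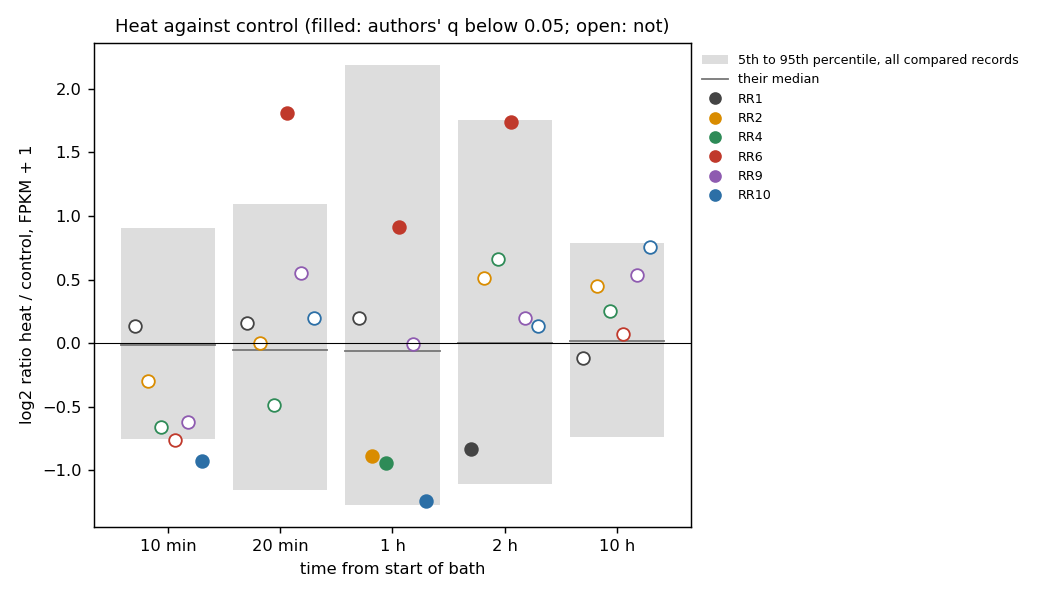
Log2 ratio of heat to control (FPKM + 1) of the 6 genes at each sampling time; filled points have q below 0.05 in the authors' deposited table and open points do not. Grey bars span the 5th to 95th percentile of 24219 compared records, with their median as a line; RR6 lies above the bar at 20 min, and RR6 and RR10 lie below it at 10 min.

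The second question was how the genes moved with time within each bath. Temperature, time of day and handling change together along these courses and cannot be told apart. In the controls all 6 members were lower at 2 h than at 1 h, and 5 of 6 by at least 1 on the log2 scale, a size reached by 3.36% of compared records, while 3.11% were higher by as much. The log2 differences between these control groups were -1.65 for RR2, -1.52 for RR4, -1.62 for RR6, -2.00 for RR9 and -2.98 for RR10. The shared row of RR1 was at -0.94, and the higher row of RR1 alone at -1.35. A difference at least as low as that of RR10 was found in 0.0785% of compared records. These differences between times have no test, and a single group at 1 h or 2 h enters each of them.

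From 20 min to 1 h most control differences had the opposite sign. Between these groups 3 of 6 members were higher by at least 1 on the log2 scale, RR4 at 1.04, RR6 at 1.06 and RR10 at 1.59, against 3.29% of compared records, and none was lower by that size, as 4.17% of records were. RR2 and RR9 were at 0.76 and 0.75 and the shared row of RR1 at -0.30. From 10 min to 20 min no member of the controls differed by 1 or more in either direction, where 3.57% of records were higher and 2.12% lower by that size. From 2 h to 10 h 2 of 6 were higher by at least 1, RR1 at 1.53 and RR2 at 1.91, against 6.66% of records, and none was lower by as much, against 6.76%.

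In heated shoots the changes differed between genes from the first step on. From 10 min to 20 min 3 of 6 members were higher by at least 1 on the log2 scale, RR6 at 1.80, RR9 at 1.65 and RR10 at 1.07, against 2.09% of compared records. None was lower by that size, as 3.29% of records were. The shared row of RR1, RR2 and RR4 were lower by less, at -0.23, -0.04 and -0.35. For RR6, RR9 and RR10 the corresponding differences in the controls were -0.77, 0.47 and -0.05. From 20 min to 1 h no member of the heated groups differed by 1 or more, although 14.1% of records were higher and 5.58% lower by that size. RR4, at 0.58, moved most.

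From 1 h to 2 h 3 of 6 members were lower by at least 1 in heated shoots, against 9.99% of compared records, and none was higher by that size, against 7.44%. They were the shared row of RR1 at -1.96, RR9 at -1.80 and RR10 at -1.61, while RR6 was at -0.80. RR2 and RR4 were at -0.25 and 0.08 in heated shoots, against -1.65 and -1.52 in controls. From 2 h to 10 h 4 of 6 were higher by at least 1, RR1, RR2, RR9 and RR10, where 14.4% of records were, and RR6 alone was lower, at -1.40, where 16.5% were. Whether the heated and control courses differ beyond the spread between libraries could not be tested.

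**Figure D4:**
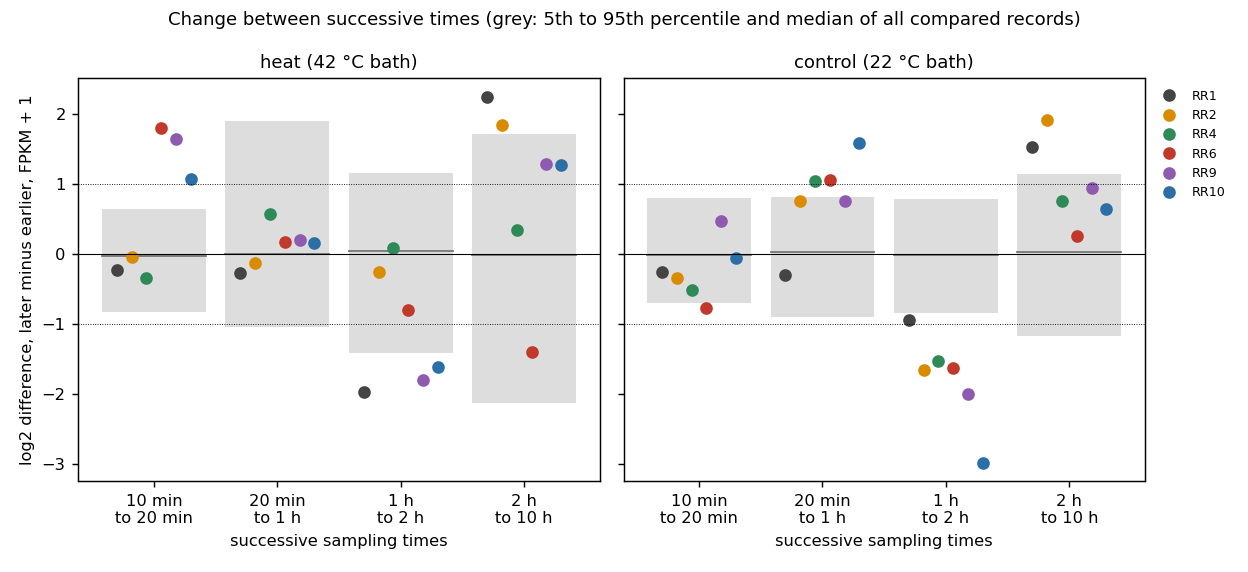
Log2 difference (FPKM + 1, later minus earlier) between successive sampling times in heated shoots (left) and control shoots (right), 1 point per gene; dotted lines mark 1 and -1 and grey bars span the 5th to 95th percentile of 24219 compared records. From 1 h to 2 h all 6 control points lie below the bar, between -0.94 and -2.98.

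The 5 genes other than RR1 summed to 45.25, 65.61, 74.92, 51.47 and 96.22 FPKM in heated shoots from 10 min to 10 h. In the controls the sums were 68.59, 51.26, 107.87, 28.01 and 72.12 FPKM. The heated sum was the lower one at 10 min and 1 h and the higher one at 20 min, 2 h and 10 h. At 20 min RR6 alone, at 22.28 FPKM in heated and 5.65 FPKM in control shoots, differed by more than the sums did. At 2 h RR6 was the only one of the 5 genes called, and at 10 h none was. RR2 differed most at 10 h, at 56.91 FPKM in heated and 41.49 FPKM in control shoots. Members of high level weigh most in these sums, which were not tested. Within the controls the sum at 1 h was the highest and that at 2 h the lowest.

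Since FPKM is scaled to length, levels can be set side by side between genes. With the shared row taken for RR1, RR9 was the lowest member in all 10 groups. The higher row of RR1 alone was below RR9 in heated shoots at 20 min (2.98 against 5.1 FPKM) and at 1 h (3.24 against 6 FPKM). A possible split of reads between RR9 and RR10 also leaves the level of RR9 uncertain. The shared row of RR1 was the highest in 3 of 5 heated groups and in 4 of 5 control groups, RR4 was the highest at 1 h in the controls and at 2 h in heated shoots, and RR2 at 10 h in heated shoots. RR6 was second after RR1 in heated shoots at 20 min and 1 h, against rank 4 and rank 5 in the controls at these times. With no spread within a group, it cannot be said which neighbours in these orders differ. The span over all groups was 12.8-fold for RR10, 8.03-fold for RR9, 7.17-fold for RR6, 6.03-fold for RR1, 5.54-fold for RR2 and 3.03-fold for RR4. On the log2(FPKM + 1) scale the spans were 2.98 for RR10, 2.54 for RR6, 2.46 for RR1, 2.36 for RR2, 2.00 for RR9 and 1.52 for RR4. RR9 thus ranked lower on this scale, as its fold span rests on a low value of 0.75 FPKM in the 2 h controls. The median span of all compared records was 1.39.

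Likeness of course was described over the 10 group values on the log2(FPKM + 1) scale, where points share their libraries and times. RR9 and RR10 were most alike, with Pearson's r of 0.88 and Spearman's rho of 0.92, and r between 0.84 and 0.91 when any 1 group was left out. Reads could have been split between these near-identical copies, and the part of this in their likeness was not tested. RR2 and RR4 followed with r of 0.69 and rho of 0.71. The own row of RR1 had r of 0.86 with RR4 and 0.79 with RR2, whereas the shared row had 0.14 and 0.58. RR6 had r of -0.18 with RR2, 0.06 with RR4 and 0.55 with RR9. Set against the mean course of the other 5 members, r was 0.86 for RR10, 0.85 for RR9, 0.50 for RR4, 0.49 for RR2, 0.40 for RR1 and 0.24 for RR6. For RR9 and RR10 that mean includes the other copy.

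Among 17155 records outside the family with a span of at least 1 on the log2 scale, 2 had the course most like the family's mean. OS08G0221300 had r of 0.81 and rho of 0.66, and OS04G0513100 had r of 0.80 and rho of 0.82. OS08G0221300 stood at 16.78, 13.43, 23.72, 10.44 and 12.99 FPKM in heated shoots and at 17.69, 14.18, 20.56, 7.37 and 16.14 FPKM in controls. Like the family's mean course it was highest at 1 h and lowest at 2 h in both baths. With the own row of RR1 in place of the shared one, its r was 0.73 and it ranked 14th, so this likeness rests partly on the shared row. With a pseudocount of 0.1 FPKM, OS08G0221300 ranked 3rd and OS03G0126450 was first.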

How the data were processed

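Per the labels' protocols, RNA of 20 libraries from rice shoots was sequenced on an Illumina HiSeq. Tools in the submitters' processing notes are cutadapt, TopHat2 and Cufflinks, with no versions, and the build is IRGSP-1.0. The authors deposited FPKM as 1 value per group. They also deposited, per the file headers, log2 fold changes and q-values for heat against control at each time. Their test is not named in the sources used here. With no value per library, no test was run here.

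Identical rows were taken as 1 record, rows at 0 in all groups left out, and 106 records dropped whose deposited log2 fold change departed by over 0.1 from the FPKM ratio. A mean of at least 1 FPKM left 24219 records. Ratios used a pseudocount of 1 FPKM. All 6 family members were named; the 2 most similar records were taken by Pearson's r over the groups. Lists of other cytokinin genes and of tissue markers were not formed, since the RefSeq table matched 0 of 37248 IDs. The members, lists and rules were chosen with earlier results of these data known. The steps were tested on simulated data. Python 3.11.15, pandas 2.3.3 and numpy 2.4.6 were used. Alternatives were a pseudocount of 0.1 FPKM or none, other filters and thresholds, rescaled groups, summed rows, the authors' log2 fold change and, after the values were seen, other choices for RR1 and for q printed as 0.05.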

Additional observations from a re-analysis of the deposited data

Results flagged for a closer look

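Rows of a family member other than its highest one took no part in the comparisons, and in some of them the heated value exceeded the control by at least 1 on the log2 scale. The second highest row of RR2, with a mean of 2.77 FPKM, had log2 ratios of 2.06 at 10 min, 2.48 at 20 min and 1.04 at 2 h. Its values were 3.18, 7 and 2.76 FPKM in heated shoots at these times, against 0, 0.43 and 0.83 FPKM in controls, and at 1 h the order was the opposite, with 2.01 FPKM after heat and 8.12 FPKM in controls. None of these had a q below 0.7 in the authors' deposited table. The lowest row of RR1, with a mean of 1.48 FPKM, had a log2 ratio of 1.13 at 20 min, from 2.51 FPKM after heat and 0.6 FPKM in controls (q = 0.7 in the authors' deposited table).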

How the results depend on the processing

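No paired analysis was possible because the table gives 1 value per group, and for the same reason no replicate could be left out. All 8 called values kept their direction under rescaling and summed rows. Little could change there, as the rescaling factors were close to 1 and only RR1 and RR2 have rows to sum. A pseudocount of 0.1 FPKM or none and the authors' log2 fold change rest on the same FPKM values. They therefore cannot turn a direction and are no check of it. The own row of RR1 ended the call at 2 h (log2 ratio -0.06) and turned its uncalled ratios from 10 min onward to -0.58, -0.45 (20 min), -1.49 (1 h) and 0.10 (10 h). It also gave 0.073 from 1 h to 2 h in heated shoots and left 1 member higher from 2 h to 10 h in controls. Summed rows put RR1 at -0.11 at 1 h. With q below 0.01, 0, 1, 3, 1 and 0 members were called from 10 min to 10 h, in the authors' deposited table. Of the 24219 compared records, 482, 1186, 2966, 2638 and 414 were called at these times. A q printed as 0.05, if counted, gave 2 members at 10 min and 3 at 2 h, beside 954 and 4373 of the 24219 compared records. Asking also for 2-fold left 1 member at 1 h, RR10, and 1 at 2 h, against 16.1% and 14.0% of compared records, and 618 records at 10 h. With no filter 1423 records were called at 10 min. Leaving out RR1 gave 1 member at 2 h. Depth limits the precision by an unknown amount.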
